A study of Mus musculus with 10 samples.

Results

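Innate defence genes of the vessel wall were followed through the endothelium of the mouse ear: Lcn2, Lbp, Cp, Lrg1 and Il6st from the acute-phase response, and C3, C4b, Cfb and Serping1 from the complement system. These 9 genes were taken by name, by matching Ensembl identifiers to mouse symbols, from the 46517 mouse genes of the 9 count tables. Single dermal endothelial cells had been sorted by podoplanin and CD31, with CD45, CD11b and Ter119 positive and dead cells gated out, and sequenced by Smart-Seq2, a full-length method with 1 cell per well. The tables hold 7 plates from 5 Pik3caH1047R;Cdh5-CreERT2 mice and 2 plates from 2 control mice, and a library of a further control mouse is not analysed here. The mutant mice carried a Cre-dependent transgene for the activating H1047R form of PI3K p110α in the Rosa26 locus, encoded by the chicken PIK3CA sequence, together with a tamoxifen-inducible Cre driven by the Cdh5 promoter, which is active in blood and lymphatic endothelium alike. Their ears were painted with 4-hydroxytamoxifen (4-OHT) at 3 weeks of age and the cells were taken at 5 weeks. Control 1 was an untreated C57BL/6J mouse bred separately, and control 2 was a Cre-negative littermate of the mutant strain that received 4-OHT, so 4-OHT was given to all mice except control 1. All mice were on the C57BL/6J background. Expression of the transgene itself was not analysed here. Mutants 1 to 4 were on plates of an earlier number series, and mutant 5 and both controls on plates of a later one, so that plate series and genotype can largely not be told apart.

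The acute-phase response is the change in plasma proteins that follows infection or injury. It is best known from the liver, where IL-6 and related cytokines act through a shared receptor subunit, gp130, and the transcription factor STAT3, together with IL-1, C/EBP factors and NF-κB. Complement is a cascade of plasma proteases that is started by antibody-bound C1, by lectins, or by slow spontaneous turnover of C3 in the alternative arm, and all arms meet at the cleavage of C3. Endothelial cells are in contact with plasma or lymph and make several of these proteins themselves. Among the genes followed, Il6st encodes gp130, the signalling subunit of the IL-6 receptor family. Lcn2 (lipocalin-2) binds bacterial iron carriers, Lbp (LPS-binding protein) passes bacterial lipopolysaccharide to CD14, Cp (ceruloplasmin) is a copper-binding ferroxidase, and Lrg1 is a secreted leucine-rich glycoprotein known to modify TGF-β signalling in endothelium. C3 is the central complement component, C4b a classical-arm component, Cfb (factor B) the protease of the alternative arm, and Serping1 (C1 inhibitor) the serpin that blocks C1r, C1s, kallikrein and factor XIIa.

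Cells were assigned by genes outside this set. A cell was a lymphatic endothelial cell (LEC) if Prox1, Flt4 and Mmrn1 together reached 300 CPM (reads of a gene scaled to the same total of gene reads) and exceeded Flt1, Emcn and Podxl together, and a blood endothelial cell (BEC) if the latter sum was larger. LECs with more Mmrn2 than Lyve1 are called collecting LECs, and the remainder are called other LECs. The 7 mice gave 361 to 713 cells each after filtering, with a median of 250729 to 404517 reads per cell. Of these cells, 1641 were LECs (358 from control and 1283 from mutant mice) and 1542 were BECs (327 and 1215), although the labels give all cells as LECs, while collecting LECs numbered only 13 to 41 per mouse. Flt4, itself a gate gene and so no independent check, reached 1538 to 2042 CPM in LECs. Plvap, a BEC marker outside the gates, reached 2012 to 3919 CPM in BECs. Cldn11, a gene of collecting vessels and valves, was at 24.9 and 13.7 CPM in the collecting LECs of the control mice and at 95.6 to 312 CPM in those of the mutant mice, and whether the gate holds the same cells in both genotypes was not tested. Markers of other cell types were present in some cells of both gates. The summed level of 6 fibroblast markers was 748 and 947 CPM in control BECs and 17.6 to 86.3 CPM in mutant BECs, and 243 and 455 CPM in control LECs against 26.9 to 127 CPM in mutant LECs. None of the 6 was at 0 in all mice in either gate. Reads were summed per mouse and class, so that each mouse counts once (n = 2 control and n = 5 mutant mice). From such sums, fewer expressing cells and less RNA per cell cannot be told apart. Tests are edgeR quasi-likelihood tests over all genes, with Benjamini-Hochberg adjustment, and a gene is said to pass at an adjusted p under 0.05.

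The genes lie at 9 loci on 4 chromosomes of the GRCm38 assembly. On chromosome 2 are Lcn2 (32384633 to 32388252, minus strand), Serping1 (84765387 to 84775444, minus strand) and Lbp (158306493 to 158332852, plus strand). Chromosome 3 holds Cp (19957054 to 20009145, plus strand) and chromosome 13 holds Il6st (112464070 to 112510086, plus strand). Chromosome 17 holds C4b (34728380 to 34743882) and Cfb (34856374 to 34862518), neighbours in the class III part of the major histocompatibility complex, as well as Lrg1 (56119678 to 56122001) and C3 (57203970 to 57228136), all on the minus strand. Cfb shares 79.5% of its exonic bases with the overlapping model Gm20547, so reads of these 2 models cannot be told apart, and the reads of Gm20547 over those of Cfb stood in a ratio of 0.938 to 1.00 in BECs and 0.947 to 1.39 in LECs. C4b shares no exonic bases with another model but is close in sequence to C4a, a separate gene. Whether this likeness affected its low reads was not tested, so they are uncertain.

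RefSeq promoter windows (GRCm38.p6) were at hand for 5 of the 9 genes and are shown for 4 of them, as the DNA that flanks the starts of genes described below. Printed are the bases before the annotated start that lie outside any annotated exon, 5′ to 3′ on the gene's strand. The windows are chr3:19956804-19957053 (plus strand) for Cp, chr13:112463820-112464069 (plus strand) for Il6st, chr17:56122002-56122196 (minus strand) for Lrg1 and chr17:57228137-57228386 (minus strand) for C3, and capitals mark a match to a C/EBP-type motif.
Cp: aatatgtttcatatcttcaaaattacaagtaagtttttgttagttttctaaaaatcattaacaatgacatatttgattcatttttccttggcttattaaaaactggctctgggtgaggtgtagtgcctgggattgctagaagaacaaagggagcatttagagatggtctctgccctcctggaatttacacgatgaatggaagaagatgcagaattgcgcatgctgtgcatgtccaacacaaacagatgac
Il6st: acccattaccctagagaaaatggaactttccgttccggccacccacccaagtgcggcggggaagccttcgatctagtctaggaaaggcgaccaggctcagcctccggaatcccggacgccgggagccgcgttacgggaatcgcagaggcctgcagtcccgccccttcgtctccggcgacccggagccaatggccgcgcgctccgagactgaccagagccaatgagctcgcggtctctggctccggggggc
Lrg1: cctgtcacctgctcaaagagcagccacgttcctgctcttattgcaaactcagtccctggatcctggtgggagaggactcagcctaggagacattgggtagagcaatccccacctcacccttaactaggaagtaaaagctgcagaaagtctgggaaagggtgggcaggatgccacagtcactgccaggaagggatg
C3: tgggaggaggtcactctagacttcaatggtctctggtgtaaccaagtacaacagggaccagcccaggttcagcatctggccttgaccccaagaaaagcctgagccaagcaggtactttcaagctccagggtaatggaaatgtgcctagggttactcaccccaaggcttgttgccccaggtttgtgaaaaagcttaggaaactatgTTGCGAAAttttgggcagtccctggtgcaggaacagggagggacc
The letter patterns of 3 kinds of acute-phase factor were searched on both strands in the 250 bases before each start: TTCNNNGAA for STAT factors, TTGCNNAA for C/EBP factors and GGGNNTTTCC for NF-κB. The C/EBP pattern was found 45 bases before the start of C3, 216 bases before that of Lcn2 and 70 bases before a second Cp start, and it is held by 9.56% of all 32851 windows of that length. Neither the STAT pattern (7.02% of all windows) nor the NF-κB pattern (1.41%) was found in the 6 windows of these genes. A match is a run of letters and not a binding site.

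The 9 genes split between the lymphatic and the blood endothelium. Per kilobase of exon, the mean level over the 7 mice in LECs was highest for Lrg1 (330 CPM per kilobase, range 221 to 494), Lbp (244, range 200 to 285), Lcn2 (170, range 116 to 243) and Serping1 (111, range 57.6 to 191), followed by Cp (58.0, range 42.7 to 82.6), Il6st (43.8, range 22.4 to 59.6) and Cfb (22.8, range 9.04 to 29.8). Each of these overlapped its neighbour in this order. C3 (2.26, range 0.54 to 5.54) lay below all of them, and C4b (0.09, range 0 to 0.55) overlapped the lowest C3 values. In BECs the order per kilobase was Lrg1 (667, range 301 to 1049), Cfb (101, range 18.8 to 146), Il6st (78.9, range 46.5 to 118), Lbp (53.5, range 14.6 to 97.5), Serping1 (29.8, range 20.6 to 45.5), Lcn2 (10.4, range 2.22 to 27.1), Cp (4.62, range 2.39 to 7.77), C4b (0.52) and C3 (0.21). Lrg1 and Cp stood clear of their lower neighbours there, and the other neighbours overlapped. Lrg1 thus had the highest per-length mean in both classes, while the place of Cfb in BECs differed by genotype, with a mean of 22.2 CPM per kilobase in control mice, below Il6st (56.2), Serping1 (35.4) and Lbp (22.8), and of 133 CPM per kilobase in mutant mice, above all but Lrg1.

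**Figure D1:**
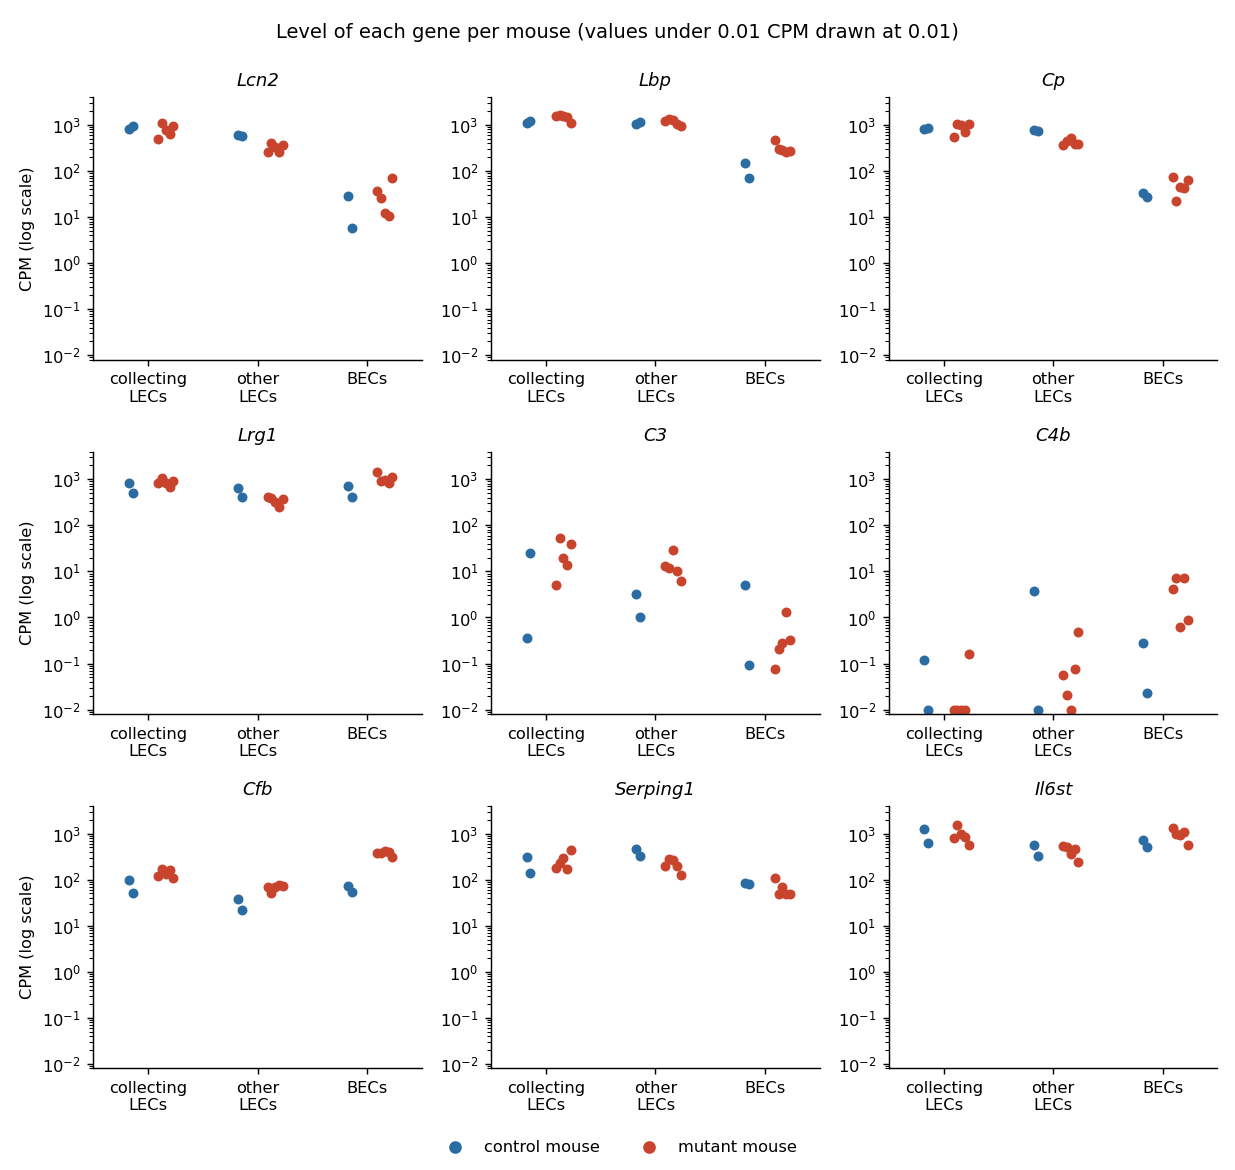
Level of each gene in CPM (log axis) in collecting LECs, other LECs and BECs, with 1 point per mouse for 2 control and 5 mutant mice. Lcn2 and Cp sit far lower in BECs than in either LEC class in all 7 mice, while Cfb is highest in the BECs of the mutant mice (309 to 412 CPM).

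Lcn2, Cp, Lbp and Serping1 were higher in LECs than in BECs in both genotypes. Serping1 was not confined to LECs, at 531 CPM pooled over the 65 cells in neither gate. Of those cells, 52 carried over 1000 CPM of other cell types' markers. Lcn2 was at 636 and 611 CPM in the LECs of controls 1 and 2 and at 28.4 and 5.83 CPM in their BECs. In mutants 1 to 5 it was at 309, 505, 380, 303 and 382 CPM in LECs and at 37.0, 26.1, 12.5, 10.4 and 71.0 CPM in BECs. Every LEC value was thus above every BEC value. Except for mutants 2 and 3, the BEC level of Lcn2 ordered the mice as did a LEC gene in the same sums, Lyve1, which was at 88.9 and 25.2 CPM in control BECs and at 106, 37.9, 44.2, 26.3 and 137 CPM in mutant BECs. The part of LEC RNA in the Lcn2 values was not tested. Cp was at 790 and 743 CPM in control LECs against 33.5 and 26.7 CPM in control BECs. Its mutant LEC values of 408, 524, 573, 427 and 417 CPM compared with 74.3, 22.9, 44.4, 43.1 and 64.6 CPM in mutant BECs. Lbp was at 1051 and 1175 CPM in control LECs and at 150 and 70.6 CPM in control BECs.

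In the control mice, 5 of the 9 genes passed the test of LECs against BECs, where 10.0% of all 22000 genes tested passed. Lcn2 was higher in LECs by 5.62 ± 0.85 on the log2 scale (SE, edgeR adjusted p = 0.0054), Cp by 4.72 ± 0.49 (edgeR adjusted p = 0.0011), Lbp by 3.48 ± 0.31 (edgeR adjusted p = 0.00063) and Serping1 by 2.19 ± 0.36 (edgeR adjusted p = 0.0076), while Cfb was lower in LECs (log2 difference -0.79 ± 0.16, edgeR adjusted p = 0.020). In the mutant mice all 9 passed, against 19.0% of all genes. The same 4 genes were higher in LECs there, by 3.93 ± 0.50 (Lcn2), 3.33 ± 0.30 (Cp), 1.96 ± 0.18 (Lbp) and 1.77 ± 0.22 (Serping1), and C3 was higher by 5.52 ± 1.09. Cfb (-2.29 ± 0.11), Lrg1 (-1.34 ± 0.09), Il6st (-1.05 ± 0.10) and C4b (-6.28 ± 1.58) were lower in LECs, with C4b at only 0 to 0.48 CPM in mutant LECs. The 2 control mice give this test less precision than the 5 mutant mice, and 3 of the 9 passed in control mice without control 2 (4.73% of all genes).

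Both LECs and BECs expressed Lrg1 and Il6st, and both genes passed as lower in LECs in the mutant mice only. For Il6st the difference between genotypes did not itself pass (interaction term -0.76 ± 0.19, edgeR adjusted p = 0.18). Lrg1 was at 668 and 421 CPM in control LECs and at 702 and 406 CPM in control BECs. In mutants 1 to 5 the LEC values were 489, 477, 378, 298 and 394 CPM, and the BEC values were 1417, 926, 945, 812 and 1099 CPM. The groups overlapped in LECs and not in BECs. The log2 ratio of LECs over BECs for Lrg1 was lower in mutant than in control mice (interaction term -1.37 ± 0.17, edgeR adjusted p = 0.036), and so was that for Cfb (-1.50 ± 0.19, edgeR adjusted p = 0.048). These were the only 2 of the 9 genes that passed this test, which 0.182% of all genes passed, and both calls are near the threshold: that of Lrg1 was kept in 6 of 12 alternatives and that of Cfb in 4 of 12. With any 1 mouse left out, 0 of the 9 genes passed, except that 1 passed without mutant 2 (0.0685% of all genes).

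Within the LECs, 0 of the 9 genes passed edgeR's test of mutant against control mice, beside 2.76% of all 19758 genes. At an unadjusted p under 0.05 there were 5 of the 9, beside 20.1% of all genes, and DESeq2 called 4, beside 12.6% of all genes. Without control 1, 1 of the 9 passed (0.796% of all genes). Lcn2 (636 and 611 CPM in controls against 303 to 505 CPM in mutants, given by mouse above) had a log2 fold change of -0.68 ± 0.20 (edgeR adjusted p = 0.11), and Cp one of -0.66 ± 0.17 (edgeR adjusted p = 0.077). For both genes every mutant mouse lay below both controls. Serping1 was at 443 and 298 CPM in control and at 193, 268, 267, 199 and 134 CPM in mutant LECs (log2 fold change -0.76 ± 0.29, edgeR adjusted p = 0.19). Cfb went the other way, from 47.1 and 25.5 CPM in controls to 77.2, 66.9, 76.1, 84.3 and 74.2 CPM in mutants (1.09 ± 0.27, edgeR adjusted p = 0.071). C3 was at 2.79 and 3.77 CPM against 11.6, 17.2, 28.5, 10.4 and 7.25 CPM (2.25 ± 0.61, edgeR adjusted p = 0.088). The 2 groups of mice did not overlap for these 3 genes either, so that 5 of the 9 genes had separate ranges, as did 25.2% of all genes tested. Other settings moved some of these values: with cycling cells removed the log2 fold change of C3 was 4.68, of Cp -0.37 and of Serping1 -0.45, and with the plate series as a block it was 1.19 for C3 and -1.44 for Serping1, none with an adjusted p under 0.05 in edgeR. Lbp, the most abundant of the set by CPM, was at 1298, 1376, 1316, 1082 and 968 CPM in mutant LECs against 1051 and 1175 CPM in controls (0.17 ± 0.15), and Il6st at 579, 638, 422, 493 and 248 CPM against 662 and 360 CPM (-0.07 ± 0.36). Neither differed beyond the spread between mice. The median log2 fold change of the 9 genes was -0.39, beside -0.01 over all genes tested.

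Cp was the one gene that passed when collecting LECs were set apart. In the other LECs it was at 788 and 726 CPM in controls and at 374, 442, 521, 394 and 396 CPM in mutants, a log2 fold change of -0.79 ± 0.16 (edgeR adjusted p = 0.037, with 3.61% of all 19242 genes passing). Every mutant mouse was below both controls, but the call was kept in only 7 of 19 alternatives. It was lost without control 1, control 2 or mutant 1, 2, 4 or 5. Lcn2 (607 and 567 CPM against 262, 413, 332, 264 and 362 CPM) gave -0.81 ± 0.20 with an edgeR adjusted p of 0.063. Cfb (38.1 and 22.1 CPM against 67.4, 51.2, 69.5, 75.0 and 73.0 CPM) gave 1.19 ± 0.29 with an edgeR adjusted p of 0.061. In collecting LECs, where 13 to 41 cells stand behind each value, 0 of the 8 genes tested passed edgeR's test, nor did any of 13721 genes (0%), while 7.43% had an unadjusted p under 0.05 and DESeq2 called 2.35%. Of the 8 genes, 1 had an unadjusted p under 0.05 and DESeq2 called 0. Lcn2 in collecting LECs was at 804 and 956 CPM in controls and at 505, 1095, 781, 635 and 969 CPM in mutants, so that the ranges overlapped. The Cp ranges overlapped as well, with 803 and 881 CPM against 549, 1049, 1009, 705 and 1032 CPM. Cfb was at 99.3 and 52.0 CPM against 118, 167, 131, 162 and 110 CPM, with every mutant above both controls (0.87 ± 0.40, edgeR adjusted p = 0.67).

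**Figure D2:**
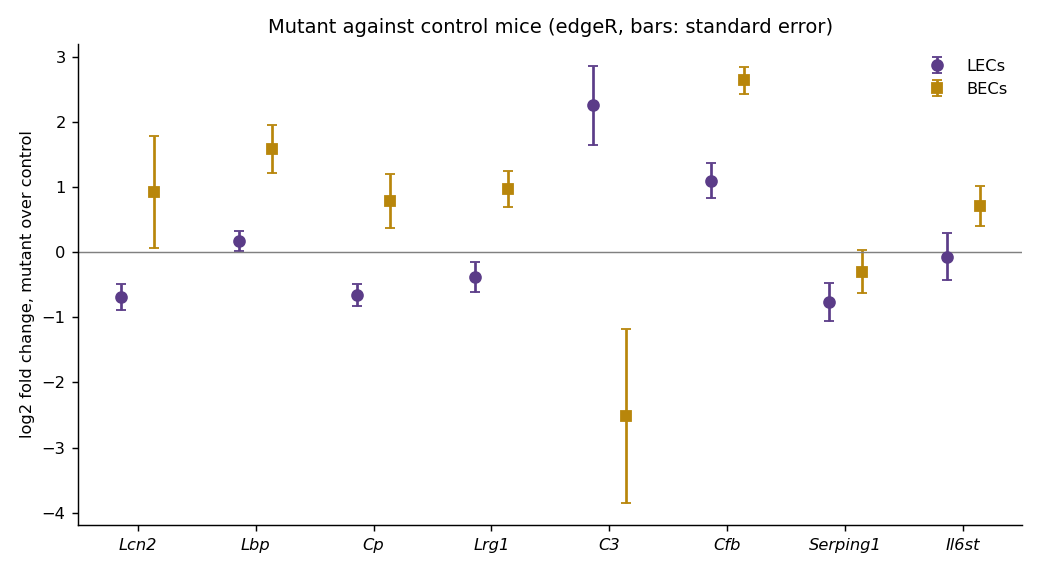
Log2 fold change of mutant over control mice in LECs (circles) and BECs (squares), with the standard error of the edgeR fit as bars, for 8 of the 9 genes (C4b, with almost no reads in several mice, is not drawn). Cfb is above 0 in both classes and farthest in BECs (2.64 ± 0.21). Lrg1, Lcn2, Cp, C3 and Il6st lie on opposite sides of 0 in the 2 classes. Among these, C3 is at 2.25 ± 0.61 in LECs and -2.52 ± 1.34 in BECs, and Il6st in LECs is at -0.07 ± 0.36.

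In the blood endothelium, Cfb was the gene with the clearest difference between genotypes. It was at 72.2 and 53.1 CPM in control BECs and at 386, 370, 412, 395 and 309 CPM in mutants 1 to 5. Every mutant mouse was more than 4 times the higher control, and the gene rose by 2.64 ± 0.21 on the log2 scale (edgeR adjusted p = 0.0038), the only one of the 9 to pass where 1.87% of all 19478 genes passed. The call was kept in 16 of 19 alternatives; with mutant 5 and the controls alone, the mice of one plate series, it was lost (edgeR adjusted p = 0.66) in a comparison of 1 mutant with 2 control mice, and with the plate series as a block the change was 2.32 (edgeR adjusted p = 0.035). Lbp was at 150 and 70.6 CPM in control and at 471, 295, 293, 260 and 271 CPM in mutant BECs (1.58 ± 0.36, edgeR adjusted p = 0.071). Lrg1, given by mouse above, had a log2 fold change of 0.96 ± 0.28 (edgeR adjusted p = 0.13), and Il6st one of 0.71 ± 0.31 (730 and 517 CPM against 1313, 989, 933, 1097 and 554 CPM, edgeR adjusted p = 0.26). Mutant and control ranges were apart for Cfb, Lbp, Lrg1 and C4b, 4 of the 9, as for 24.8% of all genes, and overlapped for the other 5. C4b was at 0.27 and 0.02 CPM in controls and at 4.12, 7.32, 0.62, 7.36 and 0.90 CPM in mutants (4.80 ± 1.59, edgeR adjusted p = 0.16). Serping1 (85.2 and 79.4 CPM against 106, 49.6, 68.1, 47.9 and 48.3 CPM) had a log2 fold change of -0.30 ± 0.33, and 0.96 (edgeR adjusted p = 0.22) once cells with over 1000 CPM of other cell types' markers were removed. The direction for Serping1 in BECs thus turned with the removal of those cells, of which there were a mean of 40.0 per control and 19.0 per mutant mouse. The median log2 fold change of the 9 genes was 0.92 in BECs, beside 0.01 over all genes.

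Levels of 4 of these genes differed between BEC subsets. BECs with Ackr1 and Selp together at 100 CPM or more (Ackr1, the atypical chemokine receptor of venules, and Selp, P-selectin, both known from venous endothelium) numbered 28 and 19 in the controls and 103, 88, 160, 68 and 142 in mutants 1 to 5. They made up a mean of 14.4% of control and 46.2% ± 6.73 (SD, n = 5) of mutant BECs, a difference of 31.8 percentage points (exact permutation test, two-sided, p = 0.095, the smallest that 21 splits of 5 against 2 mice allow). Sorting as well as tissue can set such shares. In the control mice, 4 of the 9 genes were higher in this subset than in the other BECs, beside 2.65% of all genes passing. Lrg1 was at 2440 and 1782 CPM in the subset of controls 1 and 2 and at 295 and 240 CPM in their other BECs, a log2 difference of 3.02 ± 0.34 (edgeR adjusted p = 0.0050). Lbp was at 497 and 458 CPM against 68.7 and 23.7 CPM (3.61 ± 0.65, edgeR adjusted p = 0.030). Cfb (201 and 195 CPM against 42.0 and 35.9 CPM) differed by 2.40 ± 0.28, and Il6st (1606 and 1842 CPM against 526 and 356 CPM) by 2.04 ± 0.24 (both edgeR adjusted p = 0.0062). In the control mice the median of all genes in this comparison was -0.26. The same 4 genes passed in the mutant mice, beside 3.11% of all genes, with log2 differences of 2.79 ± 0.21 (Lrg1), 2.42 ± 0.40 (Lbp), 2.16 ± 0.18 (Cfb) and 1.64 ± 0.15 (Il6st). C4b passed there too (4.42 ± 0.92, edgeR adjusted p = 0.043), and 3 of the 9 genes passed without mutant 2, 3 or 4 (1.45, 1.41 and 1.53% of all genes). For none of the 9 genes did the difference between subsets itself differ between genotypes (edgeR, 0.0954% of all genes; at an unadjusted p under 0.05, 1 of the 9 and 12.0% of all genes). In mutant mice the subset held 44.2 to 53.0% of all BEC reads but 74.8 to 91.1% of the Lrg1 reads, 68.9 to 91.5% of the Lbp reads, 71.0 to 88.5% of the Cfb reads and 64.5 to 79.3% of the Il6st reads. In controls 1 and 2 it held 18.9 and 10.8% of all BEC reads, 65.9 and 47.3% of the Lrg1 reads, 62.9 and 70.1% of the Lbp reads, 52.8 and 39.6% of the Cfb reads and 41.7 and 38.5% of the Il6st reads. It held 9.06 and 6.80% of the Lcn2 reads and 26.5 and 8.73% of the Cp reads of these controls.

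**Figure D3:**
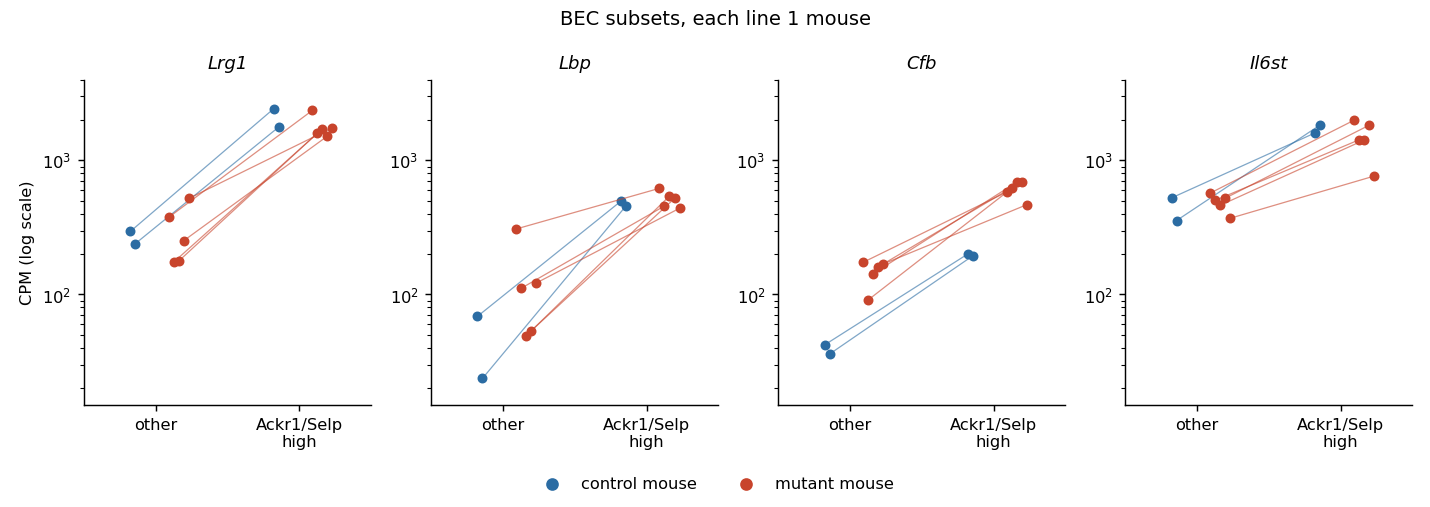
Levels of Lrg1, Lbp, Cfb and Il6st in CPM (log axis) in the other BECs and the Ackr1/Selp-high BECs, with a line for each of 2 control and 5 mutant mice. All lines climb to the Ackr1/Selp-high BECs, where mutant and control mice are mixed for Lrg1, Lbp and Il6st and apart for Cfb (195 and 201 CPM against 467 to 692 CPM).

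When mutant and control mice were compared inside each BEC subset, a comparison added after seeing the data, Cfb had separate mutant and control ranges in both. Cfb in the Ackr1/Selp-high BECs was at 201 and 195 CPM in controls and at 580, 618, 687, 692 and 467 CPM in mutants, and it rose by 1.66 ± 0.21 on the log2 scale (edgeR adjusted p = 0.011, with 3.41% of all genes passing). In the other BECs it was at 42.0 and 35.9 CPM against 173, 90.8, 143, 160 and 169 CPM (1.94 ± 0.29, edgeR adjusted p = 0.067, with 0.123% of all genes passing). Lrg1 in the Ackr1/Selp-high BECs was at 2362, 1592, 1730, 1519 and 1754 CPM in mutants, within or below the control values of 2440 and 1782 CPM (-0.20 ± 0.20, edgeR adjusted p = 0.57). Lbp there was at 619, 457, 542, 520 and 440 CPM against 497 and 458 CPM (0.15 ± 0.18). Il6st there was at 1988, 1420, 1414, 1823 and 763 CPM against 1606 and 1842 CPM (-0.18 ± 0.32). Inside this subset the ranges of Lrg1, Lbp and Il6st thus overlapped. In the other BECs Lbp was at 68.7 and 23.7 CPM in controls and at 308, 111, 49.0, 53.3 and 121 CPM in mutants, with overlapping ranges and a log2 fold change of 1.49 ± 0.78 (edgeR adjusted p = 0.48), beside 1.58 ± 0.36 in all BECs. Lrg1 there gave 0.18 ± 0.42 and Il6st 0.16 ± 0.22, and neither passed. Serping1 in this subset was at 143 and 253 CPM in controls and at 107, 73.9, 65.4, 68.2 and 46.0 CPM in mutants, all below both controls (-1.42 ± 0.35, edgeR adjusted p = 0.061). The 6 fibroblast markers together were at 1859 and 3651 CPM in this subset of the controls and at 6.10 to 118 CPM in that of the mutants, and their part in the Serping1 values was not tested.

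The lymphatic subsets differed as well. In the mutant mice, 5 of the 9 genes were higher in collecting than in other LECs, beside 0.984% of all genes passing. Lrg1 was at 818, 1054, 835, 665 and 910 CPM in the collecting LECs of mutants 1 to 5 and at 410, 387, 323, 255 and 377 CPM in their other LECs, a log2 difference of 1.36 ± 0.08 (edgeR adjusted p = 0.00020). Lcn2 (1.32 ± 0.10), Il6st (1.24 ± 0.14), Cp (1.06 ± 0.12) and Lbp (0.41 ± 0.06) also passed, while the median of all genes was -0.37. Il6st reached 801, 1502, 987, 851 and 568 CPM in collecting LECs against 526, 503, 354, 450 and 238 CPM in other LECs. In the control mice 0 of the 9 genes passed edgeR's test (0.0579% of all genes passed, 4 of the 9 and 8.98% of all genes had an unadjusted p under 0.05, and DESeq2 called 3 of the 9 and 4.02% of all genes). The values there were 842 and 508 CPM for Lrg1 and 1271 and 636 CPM for Il6st in collecting LECs, against 637 and 410 CPM and 556 and 324 CPM in other LECs. The test of whether the subset difference itself differed between genotypes was passed by none of the 9 genes (edgeR, 0% of all genes). At an unadjusted p under 0.05 there were 4 of the 9 and 5.31% of all genes, and DESeq2 called 1 of the 9 and 1.80% of all genes. Collecting LECs of mutant 5 carried 2049 CPM of the 6 fibroblast markers over 13 cells, against 2.79 to 110 CPM in the other mice. The 5 calls in mutant mice were kept without that mouse and with marker-carrying cells removed. That of Lbp was lost without mutant 2, 3 or 4. Without the mouse as a block, the calls of Lbp and Il6st were both lost. Over all genes, 71 to 1762 passed under the alternatives.

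Ptx3-high cells stood at the other end. Ptx3 encodes pentraxin-3, a secreted pattern-recognition protein that itself binds complement components. Other LECs with Ptx3 at 100 CPM or more numbered 12 and 41 in controls and 57, 61, 121, 74 and 162 in mutants, a mean of 17.0% of control and 41.4% ± 4.37 (SD, n = 5) of mutant other LECs, 24.4 percentage points apart (exact permutation test, two-sided, p = 0.095, the smallest possible). Lcn2 was at 158, 125, 143, 79.7 and 198 CPM in the Ptx3-high cells of mutants 1 to 5 and at 339, 604, 466, 481 and 529 CPM in their Ptx3-low cells. The 2 sets of values were apart, and the log2 difference was -1.79 ± 0.21 (edgeR adjusted p = 0.0067). Cp was at 200, 150, 281, 192 and 217 CPM against 506, 637, 692, 632 and 577 CPM (-1.54 ± 0.12, edgeR adjusted p = 0.0018). Serping1 (-1.52 ± 0.16, edgeR adjusted p = 0.0052), Il6st (-1.28 ± 0.12, edgeR adjusted p = 0.0037) and Lbp (-0.54 ± 0.10, edgeR adjusted p = 0.040) were lower as well, which makes 5 of 9 genes beside 1.91% of all genes passing. The Lbp call was lost without mutant 1, 2, 3 or 4, while the others were kept in all 12 alternatives. Cfb was not among the 5 genes, at 65.3, 32.8, 73.7, 80.0 and 74.8 CPM in Ptx3-high and 69.0, 63.4, 66.5, 69.0 and 71.2 CPM in Ptx3-low cells (-0.08 ± 0.41). In the controls 0 of the 9 genes passed edgeR's test (0.0733% of all genes passed, 2 of the 9 and 14.4% of all genes had an unadjusted p under 0.05, and DESeq2 called 2 of the 9 and 10.1% of all genes). Without control 2, 1 of the 9 and 10.5% of all genes passed. The test of the difference between genotypes was passed by none of the 9 either (0.0262% of all genes). At an unadjusted p under 0.05 there were 5 of the 9 and 12.0% of all genes, DESeq2 called 5 of the 9 and 6.66% of all genes, and without control 2 there were 2 of the 9 and 8.41% of all genes.

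**Figure D4:**
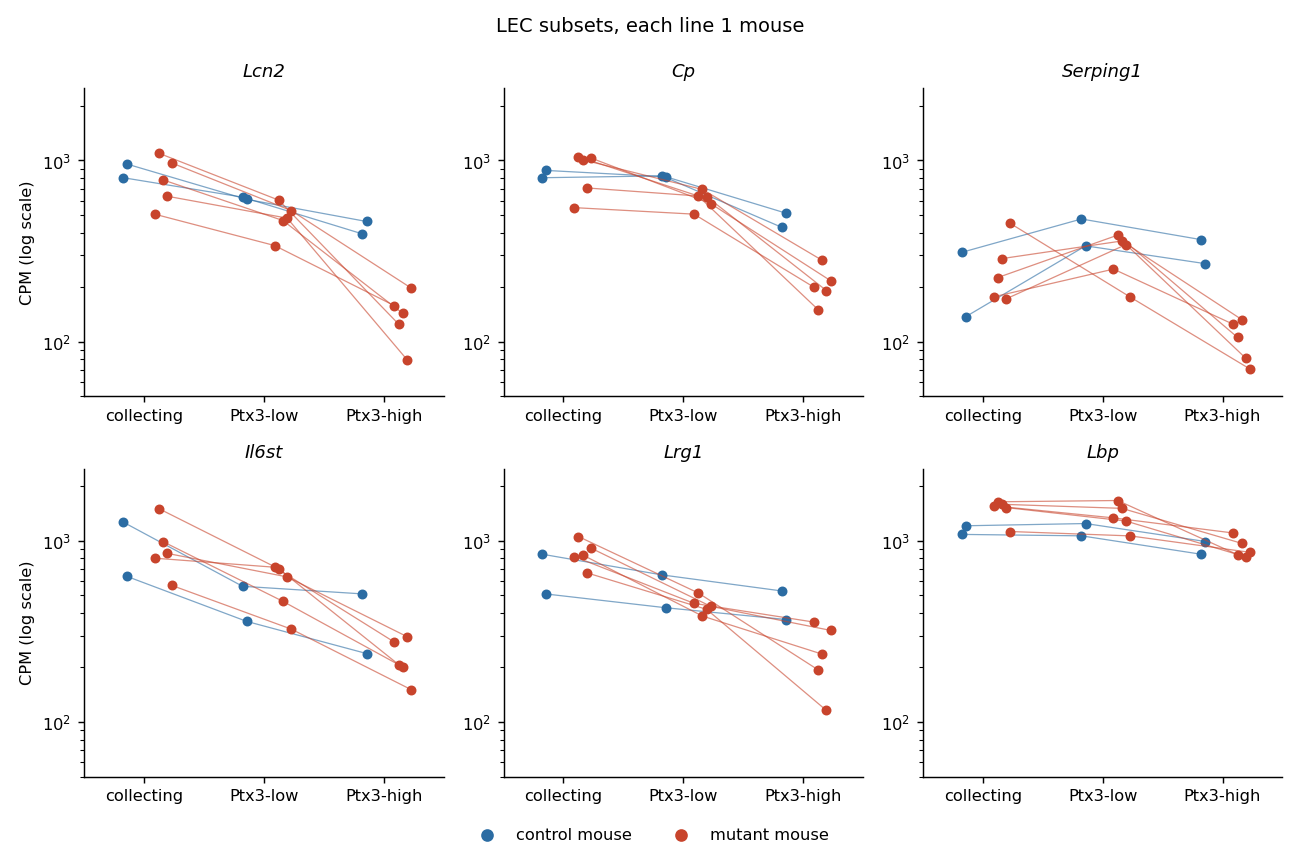
Levels of Lcn2, Cp, Serping1, Il6st, Lrg1 and Lbp in CPM (log axis) in collecting LECs, Ptx3-low other LECs and Ptx3-high other LECs, with a line for each of 2 control and 5 mutant mice. In mutant mice the lines of Lcn2 and Cp drop to the Ptx3-high cells (79.7 to 198 CPM for Lcn2), below the control mice (393 and 461 CPM).

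Some genes also differed between genotypes inside the Ptx3-high cells. In this comparison, added after seeing the data, 4 of the 9 genes passed, beside 5.71% of all genes. Lcn2 was at 393 and 461 CPM in the Ptx3-high cells of the controls, above all mutants, and fell by 1.64 ± 0.28 on the log2 scale (edgeR adjusted p = 0.018). Serping1 (366 and 270 CPM against 125, 106, 133, 81.0 and 70.7 CPM) fell by 1.68 ± 0.28 (edgeR adjusted p = 0.017), and Cp (428 and 512 CPM in controls) fell by 1.21 ± 0.22 (edgeR adjusted p = 0.023). Cfb (1.71 and 13.0 CPM in controls) rose by 3.11 ± 0.74 (edgeR adjusted p = 0.046), from 12 and 41 control cells. This rise is uncertain, since the overlapping Gm20547 was at 2.20 and 56.9 CPM in these control cells and at 31.1 to 79.6 CPM in those of the mutants, with overlapping ranges. The 6 fibroblast markers were at 972 and 395 CPM in the Ptx3-high cells of the controls and at 20.3 to 182 CPM in those of the mutants, and their part in these values was not tested. In the Ptx3-low cells none of the 9 genes passed edgeR's test, beside 0.154% of all genes, with log2 fold changes of -0.32 ± 0.21 for Lcn2, -0.39 ± 0.31 for Serping1, -0.39 ± 0.15 for Cp and 1.03 ± 0.26 for Cfb. Whether the fold changes of the 2 subsets differed is the genotype difference tested above.

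Shares of cells with a read showed which of these levels were shared by most cells. Each cell was first thinned to 50000 reads. In LECs, Lbp was detected in 96.7 to 98.9% of the cells of each mouse and Il6st in 77.7 to 96.7%. Lcn2 was detected in 93.4 and 82.9% of the LECs of the controls and in 72.8, 73.8, 74.1, 59.3 and 79.0% of those of the mutants. Cp was detected in 96.2 and 97.7% against 84.8, 81.3, 85.1, 79.7 and 74.7%. Every mutant mouse was below both controls for both genes. Cfb was detected in 16.9 and 12.6% of control LECs and in 40.8, 21.9, 38.3, 33.5 and 40.3% of mutant LECs. In BECs the Cfb shares were 23.9 and 19.5% in controls and 67.4, 57.1, 65.3, 53.5 and 54.6% in mutants, a difference of 37.8 percentage points. Each of these 4 differences had the smallest two-sided p that the exact permutation test allows with 5 against 2 mice (0.095). The adjusted p of that test was 0.32, with the BEC subsets included in the adjustment. Since the smallest p of the exact permutation test was 0.095, the design could not reach 0.05. Of the 36 combinations of gene and class without those subsets, 13 reached the smallest p. Without thinning, 6 of the 36 reached the smallest p. That p is reached where mutant and control mice do not overlap, and the share of all genes that do so is not given. The combinations are not independent, since LECs include the collecting and the other LECs.

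C3 and C4b came from few cells. In control LECs, 18 of 358 cells had a C3 read, and 5 cells held 96.4% of the 387 reads. In mutant LECs 162 of 1283 cells had one, and 5 cells held 37.4% of 7149 reads. These cells were pooled over mice, with unequal numbers of cells and reads, so the counts alone do not compare the spread of C3 between genotypes. A single cell held 93.1% of the C3 reads of control BECs. C4b had 176 reads in control LECs, of which 61.9% came from 1 cell that also carried 11788 CPM of the fibroblast markers. In mutant BECs 33 of 1215 cells had a C4b read, with 75.2% of the reads in 5 cells, and 74.7 to 98.8% of these reads per mouse lay in Ackr1/Selp-high cells. The values of these genes thus rest on single cells in several mice.

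In the wider complement and acute-phase lists, the genes that passed between mutant and control LECs were all complement regulators or IL-6 family genes. Of all genes tested there, 2.76% passed. Among 12 complement regulators tested, 2 were higher and 2 lower. Thbd, which encodes thrombomodulin, was at 231 and 163 CPM in control and at 675, 649, 745, 626 and 833 CPM in mutant LECs, and it rose by 1.88 ± 0.20 (edgeR adjusted p = 0.0062). Clu (clusterin, an inhibitor of the terminal complex) rose by 1.30 ± 0.27 (edgeR adjusted p = 0.047). Of 26 genes of IL-6 family signalling, 3 were lower: Junb (507 and 265 CPM against 65.1, 42.5, 60.1, 83.5 and 139 CPM, log2 fold change -2.28 ± 0.41), Pim1 (-2.57 ± 0.42) and Lifr, the LIF receptor (-1.23 ± 0.22). Junb and Pim1 are known STAT3 targets and also immediate-early or cytokine-induced genes of other pathways. None of 12 classical and lectin genes, 2 alternative and terminal genes, 8 receptors and 15 other acute-phase proteins passed. In BECs 1 of 16 acute-phase proteins was lower (Mt1, metallothionein 1, -1.64 ± 0.32) and 1 of 25 IL-6 family genes was lower (Junb, -1.57 ± 0.28). No gene of the other 4 lists passed in BECs, where 1.87% of all genes passed. In collecting LECs no gene of the 6 lists passed (0% of all genes). These lists were written with earlier results of these data known.

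Between the vessel types, the lists resembled the 9 genes in pointing both ways. In control mice Serpina3n, an acute-phase serpin, was at 180 and 68.2 CPM in LECs and at 5.46 and 1.56 CPM in BECs, a log2 difference of 5.28 ± 0.72, and it was the 1 of 19 acute-phase proteins to pass. In the mutant mice 4 of these 19 passed, all higher in LECs. Of all genes tested, 10.0% passed in control mice and 19.0% in mutant mice. Of 26 IL-6 family genes, 5 passed in control mice (2 higher and 3 lower in LECs) and 13 in mutant mice (4 higher and 9 lower). Lifr, which pairs with gp130, was at 79.4 and 53.3 CPM in control LECs and at 330 and 275 CPM in control BECs (-2.17 ± 0.24), and Il6ra, the receptor subunit that binds IL-6, was higher in LECs (2.28 ± 0.27). Masp1, a protease of the lectin arm, was at 71.0, 83.4, 90.7, 95.1 and 72.0 CPM in the BECs of mutants 1 to 5 and at 0.13 to 0.90 CPM in their LECs. It was higher in the Ackr1/Selp-high BECs of mutant mice by 4.01 on the log2 scale. Together with it, Bcl3, a nuclear IκB protein, was higher there in control (1.72) and mutant mice (1.04).

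Over the 21 sums of 7 mice and 3 classes, the genes fell into partly shared patterns, described here by Pearson's r of log2(CPM + 1). These sums share libraries, and differences between LECs and BECs set most of each r. The gene most like Lcn2 was Cp (r = 0.972), followed by Serpine2 (0.964), and Cp was most like Stxbp6 (0.974) and Gpm6a (0.972). Lbp was most like Prss23os (0.978) and Prss23 (0.976), 2 overlapping models whose reads may be shared. Serping1 was closest to Cyfip2 (0.919) and Tbx1 (0.917), Lrg1 to Bgn (0.891), and Il6st to Tsc22d1 (0.882) and Il13ra1 (0.875). C3 was closest to Sdc2 (0.847) and Lrp12 (0.826), and Cfb to Ints3 (0.878) and Nod1 (0.848). Lrg1 and Il6st were each other's closest gene within the set (0.784).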

How the data were processed

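Single endothelial cells of mouse ear skin were sequenced by Smart-Seq2 in 384-well plates. The authors aligned reads with TopHat2 2.1.1 to a GRCm38 index that included chicken PIK3CA, removed duplicates with SAMtools 0.1.18 and counted reads per gene with featureCounts, and the deposited tables hold these raw counts per gene and cell. The release of the gene annotation is not given in the sources used here. Smart-Seq2 reads carry no molecular identifiers and no strand, so duplicate removal acts on positions, and overlapping genes cannot be told apart. The 92 ERCC spike-ins (0.217 to 0.897% of the reads per plate) were left out, and plates held 99738886 to 151102969 reads of mouse genes.

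The limits of the study on cells were applied (200 or more genes, 50000 or more reads, mitochondrial share up to 10%). Wells held single sorted cells, and no doublet caller was run. Reads were summed per mouse and class (at least 5 cells), with both plates of mutants 3 and 5 joined. Sums were tested in edgeR 4.0.16 (R 4.3.3) by the quasi-likelihood test with TMM normalization and filterByExpr. Classes were compared within mice, with the mouse as a block and a class-by-genotype interaction. Shares of cells were tested by exact permutation of mice, with all splits listed in Python 3.11.15 and numpy 2.4.6. SciPy 1.17.1, pandas 2.3.3 and matplotlib 3.10.9 were used besides. Alternatives covered DESeq2 1.42.0, its size factors, filters, gates, plates, cell removal, blocks and leaving out each mouse. The scripts were tested on simulated counts with known changes.

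Named genes were all 9 genes, up to 4 passing genes per list and comparison with the largest fold change (mean log2 CPM 2 or more), and for each gene the 2 most correlated named genes. Some genes that this rule names are not reported here. The genes and lists were chosen with earlier results of these data known.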

Additional observations from a re-analysis of the deposited data

Results flagged for a closer look

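In 62 sets of 5 mutant mice, the highest or lowest mouse was compared with the rest by Dixon's criterion (0.71 for 5 samples), which chance passes in about 1 of 20 sets, and 6 sets passed. Lbp in collecting LECs was at 1124 CPM in mutant 5, below the next mutant at 1523 CPM. Lbp in BECs was at 471 CPM in mutant 1, above the next at 295 CPM, and in the other BECs it was at 308 CPM in that mouse, above 121 CPM. Lrg1 in the Ackr1/Selp-high BECs was at 2362 CPM in mutant 1, above 1754 CPM. C3 in the Ptx3-high other LECs was at 36.7 CPM in mutant 3, above 7.85 CPM, and Lcn2 in the Ackr1/Selp-high BECs was at 76.9 CPM in mutant 5, above 20.7 CPM.

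The difference between mutant and control mice differed between LECs and BECs for Cfb (interaction term -1.50 on the log2 scale) and for Lrg1 (-1.37), by the edgeR test given in the report.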

How the results depend on the processing

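Of the values of single genes under the alternatives, 657 kept their direction and their side of the threshold, 59 lost a call, 9 gained one and 15 reversed. With DESeq2, 4 of the 9 genes passed in mutant against control LECs, other LECs and BECs, against 0, 1 and 1 in edgeR. DESeq2 passed 2490, 2531 and 2163 of all genes there, against 546, 695 and 364 in edgeR. It also called 5 of the 9 in the interaction of LECs and BECs (edgeR 2). Over all genes, 40 passed this interaction in edgeR and 0 to 1163 under the alternatives. For collecting against other LECs, DESeq2 called 3 in control mice and 1 in the interaction (4.02 and 1.80% of all genes, edgeR 0). For the Ptx3 subsets it called 2 and 5 (10.1 and 6.66% of all genes, edgeR 0). With cells carrying other cell types' markers removed, 1 gene passed in LECs and 2 in other LECs. With a gate margin of 3, 1 passed in LECs and 1 in the interaction of LECs and BECs. The share of all genes is not given for these settings. In other LECs 0 passed with no filter, the replicate block, the plate series as a block, the plates of mutant 5 and the controls only, cycling cells removed, or Ptx3-low cells only, and 4 in Ptx3-high cells only. In BECs 0 passed with the replicate block, on the plates of mutant 5 and the controls only, and in the other BECs only. Leaving out 1 mouse gave 0 to 1 in LECs, 0 to 1 in other LECs, 3 to 5 for LECs against BECs in control mice and 0 to 1 in its interaction, 0 to 1 and 0 to 2 for the Ptx3 subsets in control mice and in their interaction, and 3 to 5 for the Ackr1/Selp subsets in mutant mice. For shares of cells, 6 of 36 combinations reached the smallest p without thinning. With a mouse left out 13 to 23 did, where 23 came without control 1 or control 2. Fewer mice allow fewer splits, so the smallest p is then larger and easier to reach, most of all with 1 control mouse. The counts with a mouse left out thus cannot be compared with that of all mice. The share of all genes is not given for them.

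The log2 fold change reversed in LECs for Lbp (-0.16 with the plate series as a block, -0.15 on the plates of mutant 5 and the controls only) and Il6st (0.34 with the replicate block, 0.0070 with the gate margin, 0.23 without cycling cells, -0.47 to 0.52 with a mouse left out), and for Lrg1 with a mouse left out (-0.71 to 0.067). In BECs it reversed for Serping1 (0.96 without marker cells), Il6st (-0.15 with the plate series as a block, -0.14 on the plates of mutant 5 and the controls only, -0.18 in Ackr1/Selp-high cells), Lrg1 (-0.20 in Ackr1/Selp-high cells) and C3 (1.26 with the gate margin, -3.47 to 2.32 with a mouse left out). Apart from fewer cells or mice in some of these settings, the cause was not tested.

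Over all genes, calls ranged over the alternatives from 3 to 2490 in LECs (546 as reported), 3 to 2531 in other LECs (695), 0 to 323 in collecting LECs (0) and 0 to 2163 in BECs (364), highest with DESeq2. Replicate numbers of the labels do not pair the mice: deviations of same-numbered mice correlated at -0.0556 to 0.0611. With the replicate block, 3 genes passed in LECs, 3 in other LECs and 0 in BECs. The 2 control mice limit every comparison of genotypes.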

Other observations

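Of the filtered cells, 65 lay in neither gate, 39 from control and 26 from mutant mice, and 52 of them carried over 1000 CPM of markers of other cell types. Keratinocyte markers passed that level in 26 of the 65 cells, fibroblast markers in 23 and mural markers in 16. Pooled over these cells, Serping1 was at 531 CPM and was read in 47 of 65 cells, and Il6st was at 277 CPM and read in all 65. Lrg1 was at 134 CPM, Lbp at 75.5 CPM, Cp at 62.2 CPM, Cfb at 60.1 CPM and Lcn2 at 23.3 CPM. C3 was at 66.4 CPM from 5 cells and C4b at 42.1 CPM from 6 cells. The mice were pooled here, so no spread between them is given.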
